A study of Mus musculus with 10 samples.

Results

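The families examined here are the genes of contact and secreted guidance cues and their receptors in O9-1, a line of murine cranial neural crest cells. They were chosen by symbol: semaphorins, plexins, neuropilins, Eph receptors, ephrins, Slits, Robo receptors, netrins and Unc5 receptors. In all, 68 of the 43346 genes in the count table had such a symbol: 20 semaphorins, 9 plexins, 2 neuropilins, 14 Eph receptors, 8 ephrins, 3 Slits, 4 Robos, 4 netrins and 4 Unc5 receptors. RNA was sequenced from 4 biologically independent wildtype samples of the line, from 3 Kat5 ko clones (Kat5/1 to Kat5/3) and from 3 Ep400 ko clones (Ep400/1 to Ep400/3). O9-1 cells were grown on Matrigel in medium preconditioned by STO fibroblasts. The clones were made with CRISPR/Cas9 in this tetraploid line, sorted for EGFP after transfection and expanded from single cells. The authors describe no such steps for the wildtype samples. Loss of the gene and derivation as a clone thus cannot be told apart. All Kat5 ko clones carried frameshifts in every allele, as did clone Ep400/1, whereas clones Ep400/2 and Ep400/3 each kept alleles with short in-frame deletions in the ATP binding site. Each knockout library was a single clone and both knockouts were compared with the same wildtype libraries, so that p-values measured the spread between clones and between wildtype samples.

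Kat5 is the acetyltransferase and Ep400 the ATPase of the Tip60/Ep400 chromatin remodeling complex, and the comparisons ask what the loss of either subunit changed in cranial neural crest cells. Guidance cues steer migrating cells. Semaphorins signal through plexins, the secreted class 3 members mostly with a neuropilin as co-receptor, ephrins on one cell bind Eph receptors on its neighbour with signals in both directions, Slits bind Robo receptors, and netrins bind Dcc, neogenin and Unc5 receptors. In the embryo, such cues keep streams of cranial neural crest cells apart and direct them to the pharyngeal arches and the face.

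Levels are given as CPM, counts scaled for library size and composition, and levels of different genes were compared only as CPM per kilobase of exon. The values of a gene are given library by library, in the order of wildtype libraries 1 to 4, clones Kat5/1 to Kat5/3 and clones Ep400/1 to Ep400/3. Positions of genes are those of GENCODE M21 on GRCm38, the build mm10 to which the authors mapped their reads. Between 30968945 and 48301792 reads per library were counted on genes, of which 0.291% to 0.467% fell on the guidance genes. *Kat5* was at 57.5, 48.8, 52.3 and 56.4 CPM in wildtype cells and fell to 22.9, 16.4 and 23.2 CPM in the Kat5 ko clones (log2-fold change -1.40, standard error 0.17, adjusted p = 0.0217). *Ep400* was at 159, 157, 157 and 165 CPM in wildtype cells and fell to 54.7, 61.4 and 59.7 CPM in the Ep400 ko clones (log2-fold change -1.44, standard error 0.12, adjusted p = 0.00121). Of 14 genes of the cranial neural crest and its mesenchyme, 13 were above 1 CPM in wildtype cells, among them *Twist1*, *Snai2* and *Pdgfra*, whereas *Sox10*, *Foxd3* and *Pax7* of the early neural crest were at 0 in all libraries. Some libraries stood apart. Clone Kat5/1 had 505 CPM of the smooth muscle actin *Acta2*, against 5.58 to 15.3 CPM in wildtype cells. In wildtype library 3 the genes of chromosome 16 lay lower than in the wildtype mean (median log2 difference -0.30). Shifts of that size were also found in clone Kat5/1 (-0.35 on chromosome 15 and 0.305 on chromosome 18) and clone Kat5/3 (-0.355 on chromosome 17 and -0.308 on chromosome 19). Clone Ep400/2 had -0.284 on chromosome 17, and all Ep400 ko clones lay higher on chromosome 19 (0.291, 0.271 and 0.239). Clone Ep400/3 had the largest share of mitochondrial reads, 3.24% against 0.893% to 2.43% in the other libraries, and the most guidance genes at least 2-fold above the wildtype mean, 20 of 52. Values without wildtype library 3, clone Kat5/1 or clone Ep400/3 are given beside named genes whose call or sign depended on them. Others are given with the calls made without clone Kat5/1 or as ranges at the end.

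Guidance genes were expressed over a wide range. In wildtype cells 45 of the 68 had a mean of at least 1 CPM, 30 of at least 10 CPM and 9 of at least 100 CPM. *Epha6*, *Epha10*, *Ephb1*, *Sema5b* and *Unc5d* were at 0 counts in every library. With 11 further genes of low counts (*Plxnb3*, *Plxnc1*, *Robo1*, *Robo2*, *Robo4*, *Sema3e*, *Sema3g*, *Sema4a*, *Sema4f*, *Slit1* and *Unc5a*), they were too low for any comparison. Of the 68 members, 50 were tested in the Kat5 ko clones, 52 in the Ep400 ko clones and 51 between the knockouts. The members that were tested passed a filter on low counts that a gene can also pass through the group in which it is high.

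In the Kat5 ko clones, 1 of the 50 members tested was higher (2%) and 0 were lower at an adjusted p of at most 0.05, where 0.127% of all 13434 genes tested were higher and 0.372% lower. The 1 gene was *Sema3c*. At an unadjusted p of at most 0.05, 6 members were higher (12%, against 10.7% of all genes) and 9 lower (18%, against 11.6%). DESeq2 with adjusted p called 4 higher (8%, against 4.86%) and 6 lower (12%, against 6.12%). In 5 members all clones lay above all wildtype libraries, and in 6 all lay below, which is 10% and 12% against 9.67% and 10.2% of all genes tested. The members had a median log2-fold change of -0.13, against 3.24e-05 over all genes. The median size of the change without its sign was 0.56 for the members and 0.31 for all genes.

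In the Ep400 ko clones, 8 of the 52 members tested were higher (15.4%) and 1 was lower (1.92%), where 8.09% of all 13836 genes tested were higher and 5.76% lower. The higher genes were the plexin *Plxna2*, the Eph receptors *Epha7*, *Ephb2* and *Ephb6*, the ephrin *Efna5*, the semaphorins *Sema3c* and *Sema3f* and the Slit *Slit2*, and the lower gene was the plexin *Plxnb1*. At an unadjusted p of at most 0.05, 16 members were higher (30.8%, against 18% of all genes) and 4 lower (7.69%, against 14.2%), and DESeq2 called 11 higher (21.2%, against 12.1%) and 2 lower (3.85%, against 10.5%). In 10 members all Ep400 ko clones lay above all wildtype libraries and in 4 all lay below, which is 19.2% and 7.69% against 16.1% and 14.1% of all genes. The median log2-fold change was 0.29 for the members and 0.04 over all genes, with 34 positive and 18 negative values. As the RNA comes from whole cultures, fewer cells that express a gene and less of its RNA per cell cannot be told apart.

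**Figure D1:**
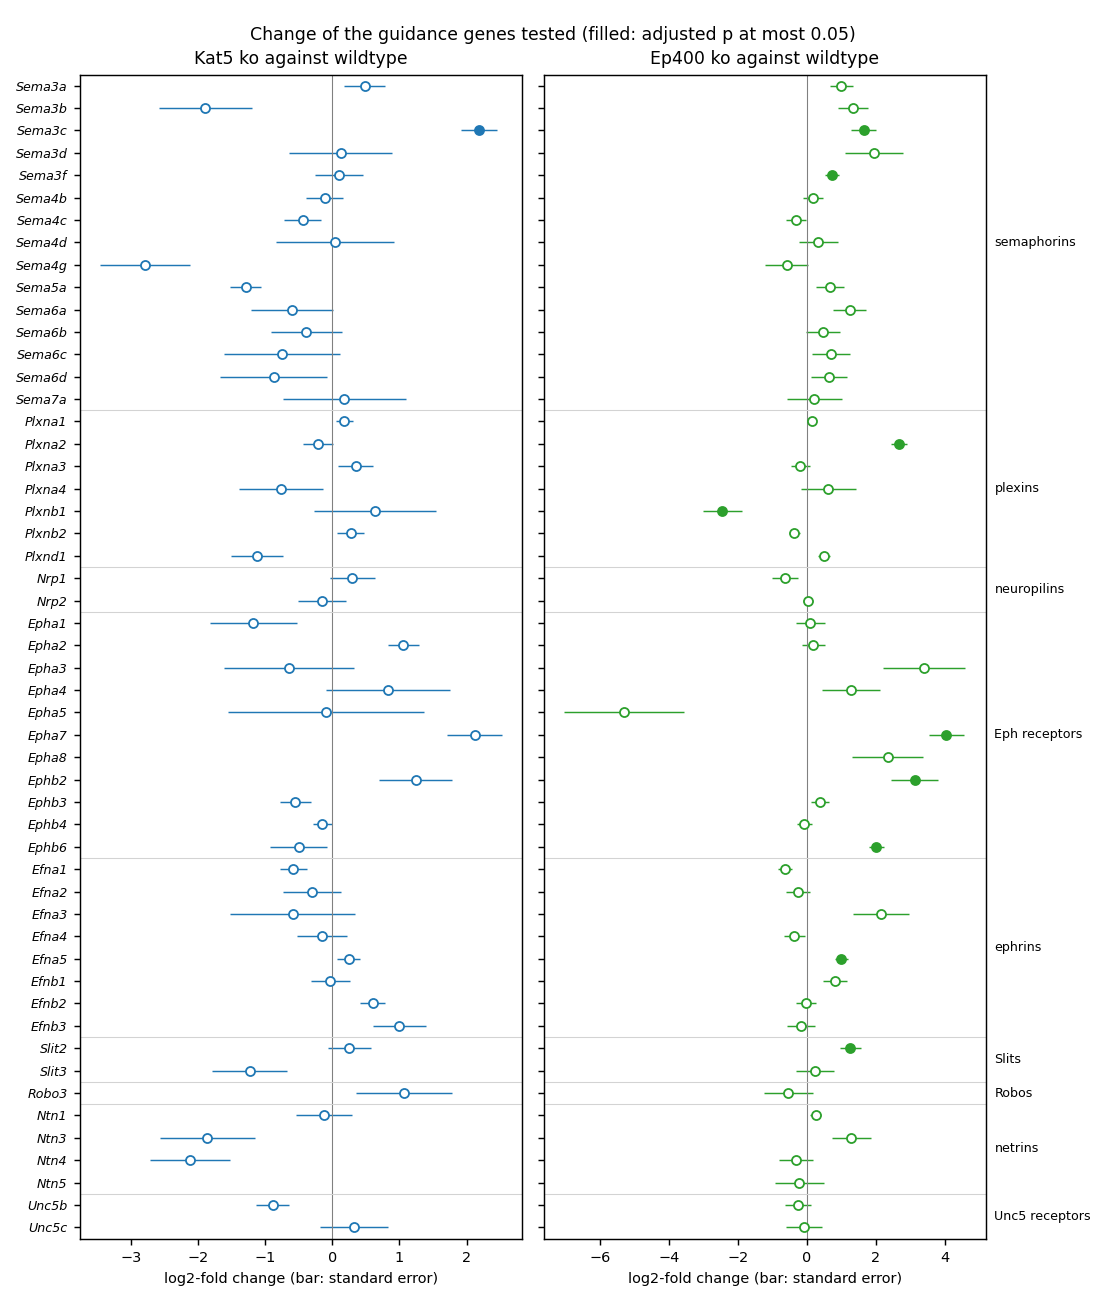
Log2-fold change (horizontal axis, with the standard error as bars) of each guidance gene tested, grouped by family, in the Kat5 ko clones (left, 50 genes) and the Ep400 ko clones (right, 52 genes) against the same 4 wildtype libraries. Filled points passed an adjusted p of 0.05 in edgeR's quasi-likelihood test: *Sema3c* on the left, and 8 higher genes and *Plxnb1* on the right. The horizontal scales of the panels differ.

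Between the knockouts, 2 of the 51 members tested were higher in the Ep400 ko clones (3.92%) and 0 were lower, where 4.34% of all 13587 genes tested were higher and 2.97% lower. These were *Plxna2* and *Ephb6*. At an unadjusted p of at most 0.05, 15 members were higher in the Ep400 ko clones (29.4%, against 16.4% of all genes) and 6 lower (11.8%, against 16%), and DESeq2 called 14 higher (27.5%, against 12.2%) and 3 lower (5.88%, against 10.3%). The number called depended on several clones: 0 without clone Ep400/3 or clone Kat5/3, 1 without clone Kat5/2 or clone Ep400/2, and 11 without clone Kat5/1. In 16 members all Ep400 ko clones lay above all Kat5 ko clones and in 4 all lay below, which is 31.4% and 7.84% against 20.5% and 18% of all genes. The median log2 difference was 0.58 for the members and 0.01 over all genes.

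The promoters of called genes are shown for the members called higher in the Ep400 ko clones together. RefSeq start sites on GRCm38.p6 were found for 59 of the 68 members, and the stretch shown is that of the 250 bases before the start that precedes the first annotated exon, read from 5′ to 3′ on the strand of the gene, with CG dinucleotides in capitals. The *Plxna2* and *Sema3c* windows lie in exons of longer transcripts of these genes and are not shown, and *Sema3f* had no start site in the table.
Epha7 (chr4:28812881-28813130, plus strand, 250 bases): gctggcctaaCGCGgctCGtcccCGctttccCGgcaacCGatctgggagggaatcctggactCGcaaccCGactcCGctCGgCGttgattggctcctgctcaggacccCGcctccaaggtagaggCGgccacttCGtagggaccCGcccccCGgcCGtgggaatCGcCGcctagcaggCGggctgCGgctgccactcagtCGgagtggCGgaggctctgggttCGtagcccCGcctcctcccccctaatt
Ephb6 (chr6:41605261-41605481, plus strand, 221 bases): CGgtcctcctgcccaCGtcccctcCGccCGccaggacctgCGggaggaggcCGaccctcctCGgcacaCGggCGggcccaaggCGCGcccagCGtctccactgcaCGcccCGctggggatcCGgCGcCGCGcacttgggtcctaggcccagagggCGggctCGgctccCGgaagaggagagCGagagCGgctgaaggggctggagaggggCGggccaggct
Ephb2 (chr4:136836013-136836262, minus strand, 250 bases): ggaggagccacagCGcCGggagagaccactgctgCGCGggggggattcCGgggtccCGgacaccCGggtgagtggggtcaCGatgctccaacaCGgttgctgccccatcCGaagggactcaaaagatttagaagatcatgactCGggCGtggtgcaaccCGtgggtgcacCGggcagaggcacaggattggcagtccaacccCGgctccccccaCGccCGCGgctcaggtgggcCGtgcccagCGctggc
Efna5 (chr17:62881318-62881567, minus strand, 250 bases): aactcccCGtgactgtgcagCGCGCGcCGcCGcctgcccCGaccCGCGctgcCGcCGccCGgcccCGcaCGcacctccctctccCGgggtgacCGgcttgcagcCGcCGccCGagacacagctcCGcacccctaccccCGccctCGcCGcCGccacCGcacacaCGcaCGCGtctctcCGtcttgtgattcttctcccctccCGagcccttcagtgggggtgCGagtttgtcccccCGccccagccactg
Slit2 (chr5:47982905-47983137, plus strand, 233 bases): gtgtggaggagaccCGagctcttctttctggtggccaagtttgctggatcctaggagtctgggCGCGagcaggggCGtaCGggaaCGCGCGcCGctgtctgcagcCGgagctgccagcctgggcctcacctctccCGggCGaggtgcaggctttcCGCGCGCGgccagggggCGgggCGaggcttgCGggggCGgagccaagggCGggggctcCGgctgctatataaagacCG

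The number of CG dinucleotides in these stretches was 25 for *Epha7*, 24 for *Ephb6*, 20 for *Ephb2*, 32 for *Efna5* and 23 for *Slit2*. In the full windows of 250 bases, the 8 called members with a start site had 18 to 39 CG (median 26) and the 51 members that were not called 2 to 46 (median 15). For the 12 members with several start sites, the window with the most CG was taken, and a GC box in any window was counted. Over 32851 RefSeq start sites, each counted singly, the median was 6. Shares and medians of members are thus not the same measure as those of all windows. Windows rich in CG were thus also found among members that were not called, such as *Slit3* with 35 and *Nrp2* with 32. The GC box GGGCGG, searched on both strands and itself containing a CG, was in the windows of 7 of the 8 called members, with *Ephb2* as the exception, in those of 37 of the 51 others (72.5%) and in 32.7% of all windows. Among the called members, TATAAA was in the window of *Slit2* alone, within tatataaag, and in 12.4% of all windows. The E-box CACGTG was in none of the windows of called members and in 6.02% of all windows. These are matches of letters within the window only.

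Plexins are the signal-transducing receptors of semaphorins. *Plxnb2* and *Plxna1* made up most of the plexin RNA, with 61.2 and 31.5 CPM per kilobase in wildtype cells, 56.9% and 29.3% of the sum over the family. *Plxna2* (ENSMUSG00000026640, chromosome 1, 194618218 to 194816869), a receptor for class 6 semaphorins and, with neuropilins, for class 3 semaphorins, was at 16.2, 11.6, 12.1 and 17.2 CPM in wildtype cells, 13.0, 14.3 and 10.6 in the Kat5 ko and 73.7, 119.8 and 77.4 in the Ep400 ko clones. The Ep400 ko clones thus lay above all other libraries, and wildtype and Kat5 ko libraries overlapped. *Plxna2* rose in the Ep400 ko clones (log2-fold change 2.66, standard error 0.23, adjusted p = 0.00122 in edgeR's quasi-likelihood test) and was also higher there than in the Kat5 ko clones (log2-fold change 2.82, standard error 0.27, adjusted p = 0.0133). Its change in the Kat5 ko clones was -0.21 (adjusted p = 0.616). With this, its level per length in the Ep400 ko clones, 5.26 CPM per kilobase, came near that of *Plxna3* with 5.89, from 0.831 against 6.76 in wildtype cells. These levels rest on merged exon lengths of 17174 bases for *Plxna2* and 7880 for *Plxna3*. In CPM the mean of *Plxna2* in the Ep400 ko clones was the higher, 90.3 against 46.4. The call against wildtype held with each library left out in turn, and that against the Kat5 ko clones was lost without clone Kat5/3 (2.72, adjusted p = 0.0684) or clone Ep400/3 (2.92, adjusted p = 0.0665).

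*Plxnb1* (ENSMUSG00000053646, chromosome 9, 109095389 to 109119917), the receptor of semaphorin 4D, was at 7.31, 11.4, 20.9 and 7.91 CPM in wildtype cells, 48.3, 1.88 and 5.97 in the Kat5 ko and 1.88, 0.875 and 3.71 in the Ep400 ko clones. All Ep400 ko clones lay below all wildtype libraries, and the Kat5 ko clones spread from 1.88 CPM to the highest level of all libraries. An antisense gene, Gm7628, shares 257 exon bases with *Plxnb1* but had 40 counts in all libraries together. *Plxnb1* fell in the Ep400 ko clones (log2-fold change -2.46, standard error 0.57, adjusted p = 0.0258). The call was lost without wildtype library 2 (-2.48, adjusted p = 0.0576), wildtype library 4 (-2.61, adjusted p = 0.0518) or clone Ep400/1 (-2.37, adjusted p = 0.0598), and in 1 fit over all libraries (-2.46, adjusted p = 0.132). For Kat5 its change was 0.64 with a standard error of 0.91, and -1.62 without clone Kat5/1.

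No change of the more abundant plexins passed the test with all libraries. *Plxnb2*, a semaphorin 4 receptor, was at 457, 469, 529 and 434 CPM in wildtype cells, 481, 473 and 795 in the Kat5 ko and 335, 335 and 429 in the Ep400 ko clones. All Ep400 ko clones lay below the wildtype libraries, but the change did not pass the test (log2-fold change -0.37, standard error 0.15, adjusted p = 0.141). Without clone Ep400/3 it was called (-0.50, adjusted p = 0.0476 in edgeR's quasi-likelihood test). The Kat5 ko clones overlapped wildtype cells (log2-fold change 0.27, standard error 0.20, adjusted p = 0.449). *Plxna1* was at 286, 299, 286 and 269.9 CPM in wildtype cells, 317, 301 and 373 in the Kat5 ko and 328, 308 and 308 in the Ep400 ko clones. Its ranges were narrow, and its log2-fold change was 0.18 in the Kat5 ko clones (adjusted p = 0.419) and 0.14 in the Ep400 ko clones (adjusted p = 0.447). *Plxnd1*, the receptor of semaphorin 3E and known from vascular and cardiac neural crest patterning, was at 35.6, 42.8, 42.2 and 30.7 CPM in wildtype cells, 30.5, 9.42 and 13.2 in the Kat5 ko and 45.3, 58.3 and 56.9 in the Ep400 ko clones. It lay below all wildtype libraries in the Kat5 ko clones (log2-fold change -1.12, standard error 0.38, adjusted p = 0.149) and above them in the Ep400 ko clones (log2-fold change 0.50, standard error 0.17, adjusted p = 0.0816), neither of which passed the test. The difference between the knockouts had a log2 value of 1.57 (adjusted p = 0.0622), and without clone Kat5/1 it was called (2.22, adjusted p = 0.0181).

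The neuropilins, co-receptors that bind class 3 semaphorins and VEGF, were both expressed. *Nrp2* was at 246, 284, 328 and 260.4 CPM in wildtype cells, 104, 350.3 and 316 in the Kat5 ko and 279, 262 and 311 in the Ep400 ko clones. Clone Kat5/1 alone lay far below the other libraries, and neither comparison passed the test, with -0.16 for Kat5 (0.22 without clone Kat5/1) and 0.02 for Ep400 (adjusted p = 0.938, and -0.0537 without clone Ep400/3). *Nrp1* was at 99.0, 106, 42.7 and 116 CPM in wildtype cells, 78.9, 142 and 123 in the Kat5 ko and 84.3, 38.7 and 51.3 in the Ep400 ko clones. The lowest wildtype library, library 3, lay in the range of the Ep400 ko clones, and the changes were 0.30 (Kat5, adjusted p = 0.63) and -0.65 (Ep400, adjusted p = 0.259).

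Among the semaphorins, 15 of 20 were tested. In the Ep400 ko clones 13 of them had a positive and 2 a negative log2-fold change, with a median of 0.67, and 2 were called. In the Kat5 ko clones 6 were positive and 9 negative, with a median of -0.39, and 1 was called. *Sema3c* (ENSMUSG00000028780, chromosome 5, 17574281 to 17730268), a secreted semaphorin that attracts cardiac neural crest cells, was at 6.07, 8.09, 3.65 and 6.30 CPM in wildtype cells, 25.5, 32.2 and 26.6 in the Kat5 ko and 23.7, 9.87 and 22.6 in the Ep400 ko clones. Every clone of both knockouts lay above every wildtype library. *Sema3c* rose in the Kat5 ko clones (log2-fold change 2.19, standard error 0.27, adjusted p = 0.0215) and in the Ep400 ko clones (log2-fold change 1.64, standard error 0.36, adjusted p = 0.0231), and the difference between the knockouts did not pass the test (log2-fold change -0.60, standard error 0.35, adjusted p = 0.262). The Kat5 call was lost without wildtype library 1 (adjusted p = 0.109), wildtype library 4 (0.105), clone Kat5/2 (0.0503) or clone Kat5/3 (0.068), at log2-fold changes of 2.09 to 2.24. The Ep400 call was lost without wildtype library 1 (0.067), wildtype library 4 (0.0664), clone Ep400/1 (0.0539) or clone Ep400/3 (0.0545), at 1.42 to 1.66.

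*Sema3f* (ENSMUSG00000034684, chromosome 9, 107681500 to 107710475), a repellent for neural crest cells that acts through neuropilin 2, was at 42.7, 53.1, 35.7 and 35.4 CPM in wildtype cells, 76.4, 25.7 and 35.0 in the Kat5 ko and 56.0, 64.7 and 87.2 in the Ep400 ko clones. All Ep400 ko clones lay above all wildtype libraries, and clone Kat5/1 lay among them. *Sema3f* rose in the Ep400 ko clones (log2-fold change 0.73, standard error 0.20, adjusted p = 0.0484), close to the threshold, and its call was lost without wildtype library 1 (adjusted p = 0.115), 3 (0.0906) or 4 (0.123) and without clone Ep400/2 (0.0814) or Ep400/3 (0.118). With an offset for chromosome shifts the log2-fold change was 0.58 (adjusted p = 0.0892). For Kat5 the change was 0.11 (adjusted p = 0.887), and -0.49 without clone Kat5/1.

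*Sema5a*, a transmembrane semaphorin with thrombospondin repeats, had the highest level per length of the family in wildtype cells, 20.1 CPM per kilobase or 33.8% of the sum. It was at 348, 271, 469.7 and 417 CPM in wildtype cells, 127, 199 and 146 in the Kat5 ko and 222, 707 and 873 in the Ep400 ko clones. All Kat5 ko clones lay below all wildtype libraries (log2-fold change -1.29, standard error 0.23, adjusted p = 0.0558), whereas clone Ep400/1 lay below and the other two Ep400 ko clones above them (log2-fold change 0.67, standard error 0.41, adjusted p = 0.281). Neither passed the test, nor did the difference between the knockouts (log2-fold change 1.91, standard error 0.48, adjusted p = 0.0535), in which the groups did not overlap. *Sema3a*, a secreted repellent that signals through neuropilin 1, was at 82.1, 51.4, 59.0 and 107 CPM in wildtype cells, 146, 97.7 and 76.8 in the Kat5 ko and 205, 158 and 86.7 in the Ep400 ko clones. Its groups overlapped (log2-fold change 0.48, standard error 0.30, adjusted p = 0.377 for Kat5, and log2-fold change 1.00, standard error 0.33, adjusted p = 0.0758 for Ep400). Without clone Ep400/3, the lowest of its group, *Sema3a* was called for Ep400 (1.27, adjusted p = 0.031). The summed semaphorin level was 56.6 to 62.3 CPM per kilobase in wildtype cells, 40.7 to 69.1 in the Kat5 ko clones and 77.3 to 97.3 in the Ep400 ko clones.

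**Figure D2:**
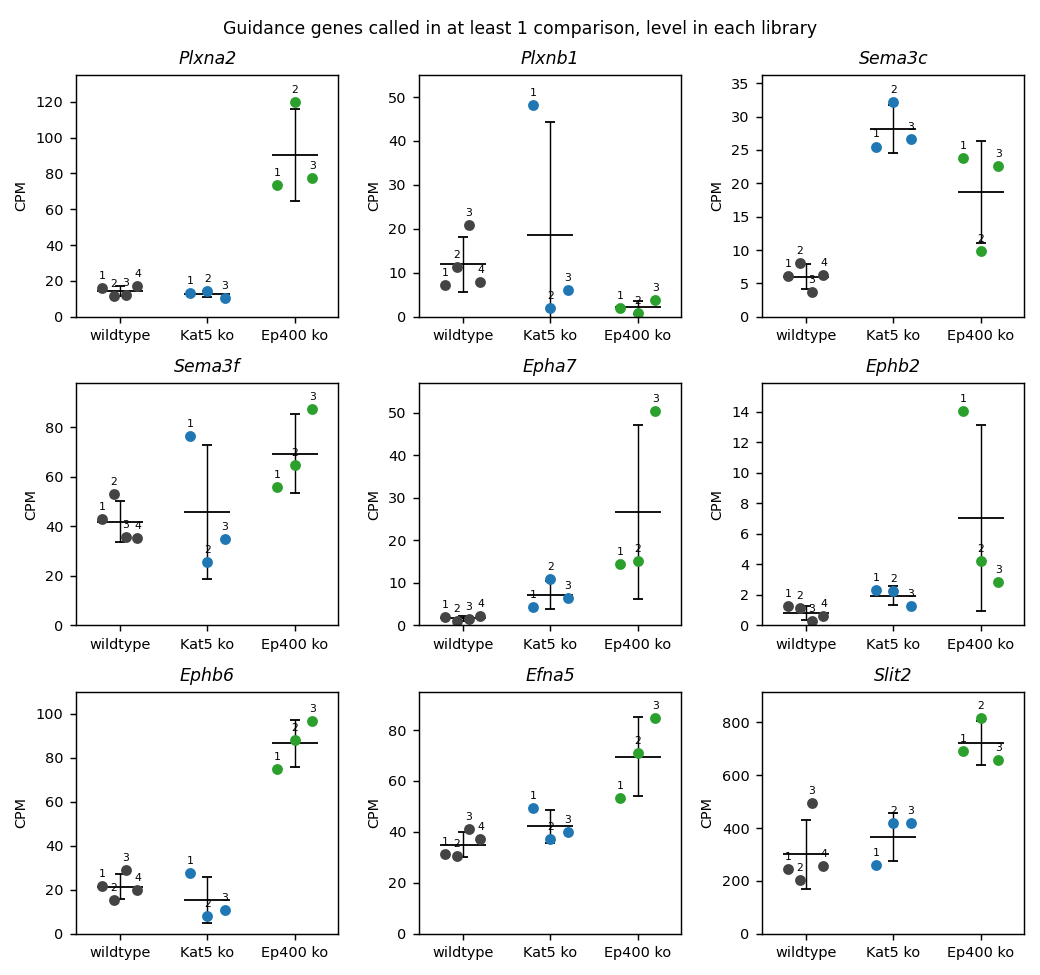
Level in CPM (vertical axes from 0) of the 9 guidance genes called in at least 1 comparison, 1 point per library with its number, in 4 wildtype, 3 Kat5 ko and 3 Ep400 ko libraries. Horizontal lines are means and bars the SD. *Plxna2* and *Ephb6* are high in the Ep400 ko clones only, *Sema3c* is higher in the clones of both knockouts than in wildtype cells, and clone Kat5/1 is the highest library for *Plxnb1*.

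Of 14 Eph receptors, tyrosine kinases that bind ephrins on neighbouring cells, 11 were tested in the Ep400 ko clones and 3 of them rose. *Ephb6* (ENSMUSG00000029869, chromosome 6, 41605482 to 41620509), a receptor whose kinase domain lacks catalytic activity, was at 21.7, 15.3, 29.0 and 19.8 CPM in wildtype cells, 27.4, 8.11 and 10.8 in the Kat5 ko and 75.0, 87.9 and 96.5 in the Ep400 ko clones. The Ep400 ko clones lay above all other libraries, and clones Kat5/2 and Kat5/3 lay below the wildtype range. *Ephb6* rose in the Ep400 ko clones against wildtype cells (log2-fold change 2.01, standard error 0.22, adjusted p = 0.00241) and against the Kat5 ko clones (log2-fold change 2.46, standard error 0.46, adjusted p = 0.0334). Its part in the summed Eph receptor level went from 9.01% in wildtype cells to 25.7% in the Ep400 ko clones. The call against wildtype held with each library left out in turn. That between the knockouts was lost without Kat5/2 (2.14, adjusted p = 0.0735), Kat5/3 (2.27, 0.127), Ep400/1 (2.55, 0.0526), Ep400/2 (2.44, 0.0873) or Ep400/3 (2.37, 0.0999).

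*Epha7* (ENSMUSG00000028289, chromosome 4, 28813131 to 28967499), a receptor for A-type ephrins with a known truncated form that promotes adhesion, was at 1.88, 0.983, 1.44 and 2.14 CPM in wildtype cells, 4.35, 10.8 and 6.48 in the Kat5 ko and 14.5, 15.0 and 50.3 in the Ep400 ko clones. Levels lay lowest in wildtype cells, between in the Kat5 ko clones and highest in the Ep400 ko clones, with no overlap between any of the groups. *Epha7* rose in the Ep400 ko clones (log2-fold change 4.04, standard error 0.51, adjusted p = 0.00372), and this call held with each library left out in turn. The change in the Kat5 ko clones (log2-fold change 2.12, standard error 0.41, adjusted p = 0.063) and the difference between the knockouts (log2-fold change 1.87, standard error 0.58, adjusted p = 0.079) did not pass the test. *Ephb2* (ENSMUSG00000028664, chromosome 4, 136647539 to 136835988), a receptor for B-type ephrins that is active in cranial neural crest and palate, was at 1.25, 1.13, 0.287 and 0.574 CPM in wildtype cells, 2.34, 2.24 and 1.23 in the Kat5 ko and 14.0, 4.22 and 2.81 in the Ep400 ko clones. The Ep400 ko clones lay above all other libraries, clone Ep400/1 farthest. *Ephb2* rose in the Ep400 ko clones (log2-fold change 3.12, standard error 0.68, adjusted p = 0.021), a call that was lost without wildtype library 4 (2.99, adjusted p = 0.0695).

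*Epha2* and *Ephb4* were the most abundant Eph receptors per length in wildtype cells, with 30.4 and 20.8 CPM per kilobase or 48.2% and 33.0% of the sum. *Epha2*, a receptor for ephrin-A1, was at 119.7, 177, 166 and 105 CPM in wildtype cells, 228, 329 and 350.2 in the Kat5 ko and 235, 163 and 83.1 in the Ep400 ko clones. All Kat5 ko clones lay above all wildtype libraries, while the Ep400 ko clones spread across both groups, and neither change passed the test (log2-fold change 1.06, standard error 0.23, adjusted p = 0.0707 for Kat5, and log2-fold change 0.18, standard error 0.33, adjusted p = 0.751 for Ep400). *Ephb4*, the receptor of ephrin-B2, was at 97.1, 93.3, 106 and 90.2 CPM in wildtype cells, 105, 76.4 and 86.0 in the Kat5 ko and 61.8, 126 and 86.1 in the Ep400 ko clones, with overlap of all groups and log2-fold changes of -0.15 for Kat5 (adjusted p = 0.594) and -0.08 for Ep400 (adjusted p = 0.831). *Ephb3* was at 38.8, 25.0, 30.0 and 35.6 CPM in wildtype cells, 29.3, 18.1 and 20.3 in the Kat5 ko and 32.1, 32.5 and 61.4 in the Ep400 ko clones. It did not pass the test in any comparison (-0.55 for Kat5, adjusted p = 0.214, and 0.38 for Ep400, adjusted p = 0.351, or -0.00636 without clone Ep400/3). *Epha4*, which binds ephrins of both types, was at 2.43, 0.376, 4.93 and 2.36 CPM in wildtype cells, 0.909, 2.17 and 10.7 in the Kat5 ko and 5.42, 1.22 and 11.6 in the Ep400 ko clones, varied widely between libraries of each group and was not called (0.83 for Kat5, adjusted p = 0.628, and 1.27 for Ep400, adjusted p = 0.322, or 0.39 without clone Ep400/3). Summed over all Eph receptors, the level was 53.9 to 72.5 CPM per kilobase in wildtype cells, 84.1 to 102 in the Kat5 ko clones and 81.8 to 93.2 in the Ep400 ko clones. *Epha2*, which was not called, held 69.4% of the sum in the Kat5 ko and 38.6% in the Ep400 ko clones. *Ephb6* held 4.38% and 25.7%. These sums were not tested, and no share over all genes was formed for them.

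All 8 ephrins were tested, and 1 was called. *Efna5* (ENSMUSG00000048915, chromosome 17, 62604184 to 62881317), a membrane-anchored ligand of Epha receptors, was at 31.2, 30.5, 41.0 and 37.2 CPM in wildtype cells, 49.5, 37.2 and 39.8 in the Kat5 ko and 53.3, 71.0 and 84.6 in the Ep400 ko clones. The Ep400 ko clones lay above all other libraries. *Efna5* rose in them (log2-fold change 0.99, standard error 0.19, adjusted p = 0.0135), a call that held with each library left out in turn. Its change in the Kat5 ko clones was 0.24 (adjusted p = 0.441). *Efna1*, the ephrin with the highest wildtype level per length (17.2 CPM per kilobase), was at 29.9, 30.0, 37.4 and 28.4 CPM in wildtype cells, 27.6, 18.1 and 18.6 in the Kat5 ko and 14.8, 23.8 and 22.2 in the Ep400 ko clones. The clones of both knockouts lay below all wildtype libraries, without passing the test (log2-fold change -0.58, standard error 0.21, adjusted p = 0.158 for Kat5, and log2-fold change -0.63, standard error 0.20, adjusted p = 0.0721 for Ep400). *Efnb2*, which marks arteries and is a ligand of Ephb4, was at 113, 144, 90.9 and 119 CPM in wildtype cells, 157, 221 and 165 in the Kat5 ko and 107, 166 and 70.9 in the Ep400 ko clones. The Kat5 ko clones lay above the wildtype libraries (log2-fold change 0.60, standard error 0.19, adjusted p = 0.125), and the Ep400 ko clones overlapped them (-0.03, adjusted p = 0.953, and 0.22 without clone Ep400/3). *Efnb1*, whose human gene is mutated in craniofrontonasal syndrome, was at 19.1, 20.5, 10.9 and 14.6 CPM in wildtype cells, 22.2, 12.7 and 13.8 in the Kat5 ko and 17.3, 22.2 and 46.3 in the Ep400 ko clones. Its groups overlapped, with clone Ep400/3 the highest library, and its changes were -0.03 (Kat5, adjusted p = 0.962) and 0.81 (Ep400, adjusted p = 0.154), the latter 0.27 without that clone. The summed ephrin level was 58.1 to 71.1 CPM per kilobase in wildtype cells, 58.9 to 80.8 in the Kat5 ko and 52.4 to 75.9 in the Ep400 ko clones.

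Slits are secreted repellents, and 2 of the 3 were abundant. *Slit2* (ENSMUSG00000031558, chromosome 5, 47983138 to 48307733) was at 244, 204, 495 and 258 CPM in wildtype cells, 261, 421 and 418 in the Kat5 ko and 691, 816 and 659 in the Ep400 ko clones. All Ep400 ko clones lay above all other libraries, and wildtype library 3 was highest among the wildtype libraries. *Slit2* rose in the Ep400 ko clones (log2-fold change 1.26, standard error 0.29, adjusted p = 0.026), and the difference from the Kat5 ko clones did not pass the test (log2-fold change 0.96, standard error 0.25, adjusted p = 0.0562). The call was lost without wildtype library 1 (1.18, adjusted p = 0.0808), wildtype library 2 (1.12, 0.0634), wildtype library 4 (1.20, 0.08) or clone Ep400/2 (1.15, 0.0696). *Slit3* had the higher level per length in wildtype cells, 32.8 CPM per kilobase against 11.8 of *Slit2*. This order rests on merged exon lengths of 6067 bases for *Slit3* and 25433 for *Slit2*. In CPM the wildtype mean of *Slit2* was the higher, 300 against 199. *Slit3* was at 128, 93.0, 449.6 and 126 CPM in wildtype cells, 51.6, 113 and 96.4 in the Kat5 ko and 125, 301 and 279 in the Ep400 ko clones. Wildtype library 3 was the highest of all libraries, and no comparison passed the test (log2-fold change -1.23, standard error 0.56, adjusted p = 0.242 for Kat5, and log2-fold change 0.24, standard error 0.56, adjusted p = 0.8 for Ep400). Without that library the values were -0.43 for Kat5 and 1.01 for Ep400 (adjusted p = 0.0838).

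The Robo receptors were close to absent. *Robo1* was at 0.255, 0.318, 0 and 0.133 CPM in wildtype cells, 0.193, 0 and 0.353 in the Kat5 ko and 0.164, 0 and 0.348 in the Ep400 ko clones, with at most 16 counts in a library. *Robo2* was at 0.192, 0.0578, 0.0783 and 0.353 CPM in wildtype cells, 0.0276, 0.0330 and 0.309 in the Kat5 ko and 0.117, 0.187 and 1.94 in the Ep400 ko clones, and all but 1 of its libraries were below 1 CPM, clone Ep400/3 reaching 78 counts. *Robo4*, an endothelial receptor, had 2 counts in all libraries together. *Robo3*, the highest per length in wildtype cells at 0.045 CPM per kilobase, was at 0.415, 0.405, 0.235 and 0.177 CPM in wildtype cells, 1.07, 0.0989 and 0.771 in the Kat5 ko and 0.446, 0.0937 and 0.0747 in the Ep400 ko clones and was not called (1.07 for Kat5, adjusted p = 0.404, and -0.54 for Ep400, adjusted p = 0.628). The summed Slit level was 110.5 to 3302 times the summed Robo level per length, depending on the library.

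Netrins are secreted cues of the laminin family, and *Ntn1* held 87.0% of the summed netrin level in wildtype cells. It was at 50.9, 60.2, 64.4 and 48.8 CPM in wildtype cells, 97.6, 26.3 and 33.0 in the Kat5 ko and 58.9, 79.1 and 62.3 in the Ep400 ko clones. Clone Kat5/1 was the highest of all libraries and clones Kat5/2 and Kat5/3 the lowest, so that the change in the Kat5 ko clones was -0.12 (adjusted p = 0.89). In the Ep400 ko clones it was 0.25 (adjusted p = 0.311). Among the receptors, *Unc5b*, a dependence receptor that mediates repulsion by netrin-1, held 94.7% of the summed Unc5 level in wildtype cells and was at 122, 103, 208 and 112 CPM in wildtype cells, 72.4, 71.7 and 81.3 in the Kat5 ko and 136, 153 and 52.4 in the Ep400 ko clones. The Kat5 ko clones lay below all wildtype libraries without passing the test (log2-fold change -0.89, standard error 0.25, adjusted p = 0.102), and the Ep400 ko clones overlapped them (-0.26, adjusted p = 0.67), with 0.00894 without wildtype library 3 and 0.0825 without clone Ep400/3. *Unc5a* had 31 counts in all libraries together, none of them in wildtype cells, and is named after its values were seen. *Ntn3* has no exon length in the annotation under its identifier and is not part of the netrin sums.

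**Figure D3:**
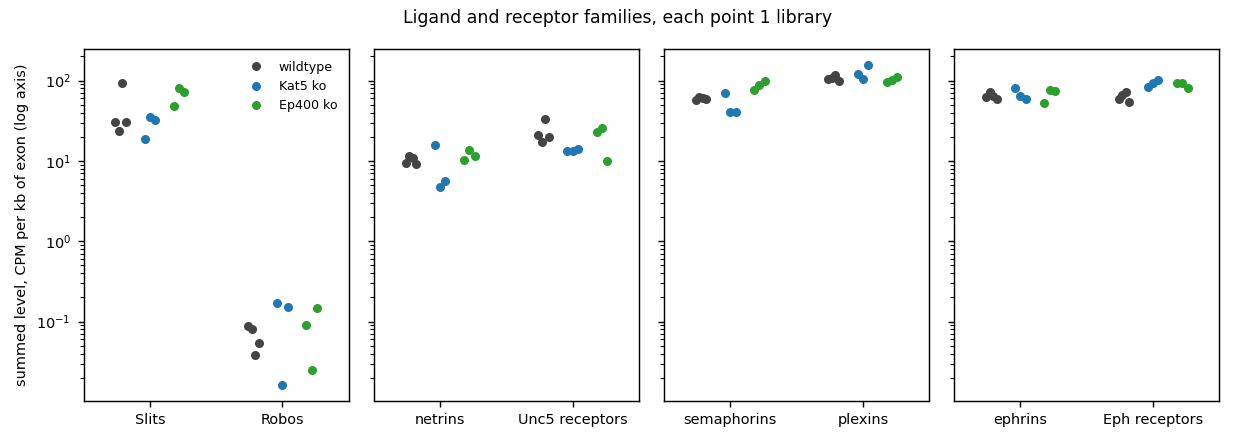
Summed level of ligand and receptor families in CPM per kilobase of exon (logarithmic vertical axis), 1 point per library, coloured by group. Robo receptors lie at 0.0164 to 0.17 in all libraries while Slits lie at 18.8 to 93.6. In the other pairs the ratio of ligands to receptors lies between 0.264 and 1.18.

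The members varied more between libraries of a group than genes at large, in a comparison not matched for level, on which the SD depends. Over the 54 members with enough counts in the 10 libraries, the median SD of the log2 level was 0.48 in wildtype cells, 0.78 in the Kat5 ko clones and 0.71 in the Ep400 ko clones, against 0.24, 0.36 and 0.36 over all 14079 genes. An SD above 1 was found for 10, 20 and 17 of the 54 members, where 5.33%, 12.4% and 9.65% of all genes had one. Members of low level were among them, such as *Epha8* with a wildtype mean of 0.155 CPM and an SD of 1.25. Several members differed between clones of the same knockout. *Plxna4* had 3.80, 44.3 and 3.56 CPM in the Ep400 ko clones, *Epha3* 1.10, 3.19 and 25.3 CPM there, and *Sema7a*, a GPI-anchored semaphorin, 2.77 to 30.7 CPM in wildtype cells, 49.0, 3.39 and 9.43 CPM in the Kat5 ko and 44.9, 9.81 and 7.52 CPM in the Ep400 ko clones. These genes were chosen after their values were seen, and none of them was called. Genes of some chromosomes moved together in a clone, by medians of -0.355 to 0.305 on the log2 scale. With an offset for these shifts, 8 of the 9 calls in the Ep400 ko clones were kept, without that of *Sema3f*.

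**Figure D4:**
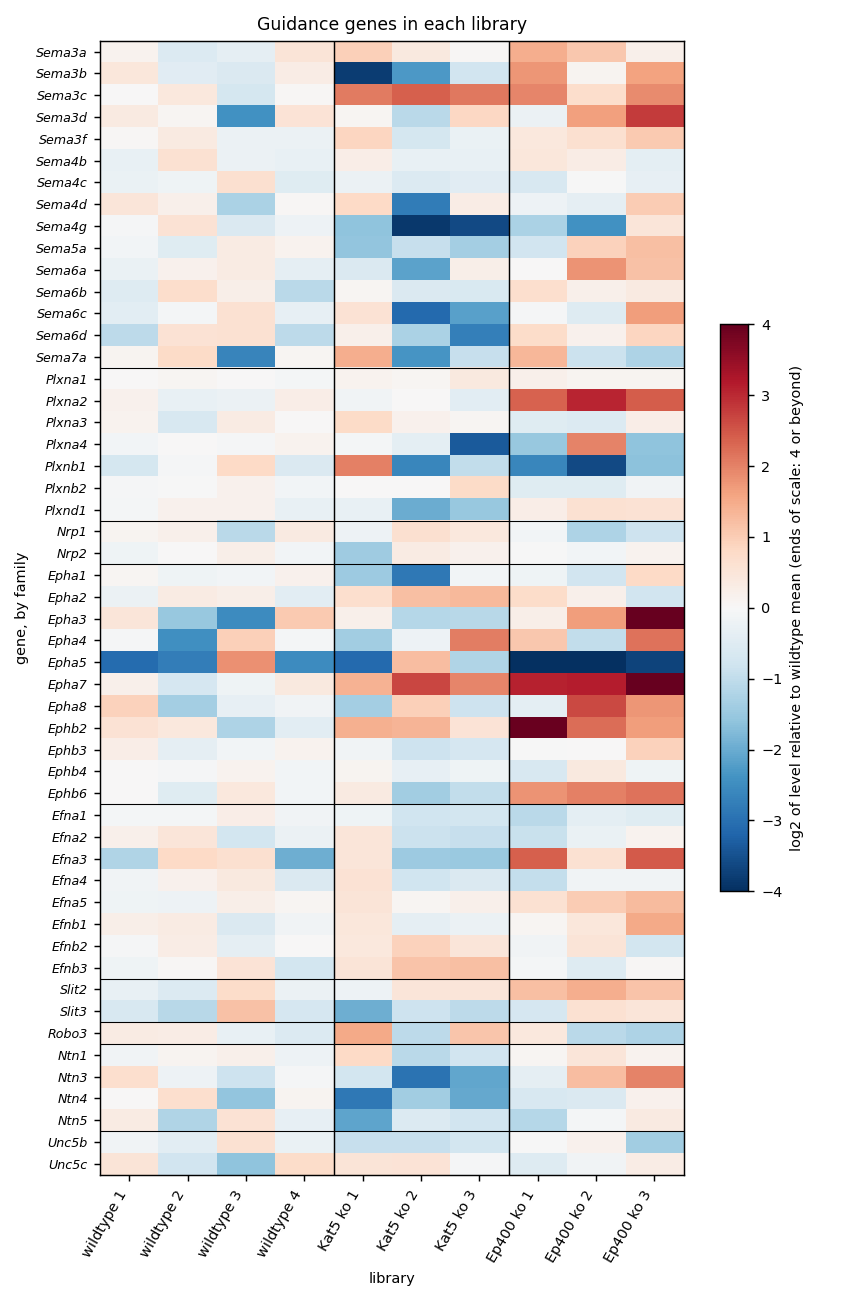
Log2 of the level of each tested guidance gene (rows, by family) relative to the mean of the wildtype libraries (with 0.1 CPM added to both), in each of the 10 libraries (columns). Red is higher and blue lower than wildtype, and the scale ends at 4 in either direction. Rows such as *Plxna2* and *Ephb6* are red in all Ep400 ko clones, whereas *Plxna4*, *Epha3* and *Sema7a* differ between clones of the same knockout.

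The number of calls in the Kat5 ko clones depended on clone Kat5/1. Without it, 13 of 54 members tested were called, 4 of them higher and 9 lower, where 9.77% of all genes were higher and 9.57% lower. The higher members were *Sema3c* (log2-fold change 2.25), *Epha7* (2.38), *Epha2* (1.23) and *Efnb2* (0.69). The lower members were *Plxnd1* (-1.77), *Ntn1* (-0.95), *Sema5a* (-1.16), *Ephb6* (-1.22), *Ephb3* (-0.79), *Efna1* (-0.81), *Sema4g* (-4.02), *Sema6c* (-2.83) and *Ntn3* (-2.94), with 0.00483 to 0.0478 as adjusted p of edgeR's quasi-likelihood test over the whole set. Of these, *Sema6c* and *Ntn3* passed the filter on low counts through the wildtype libraries, which favoured a fall in advance. Between the knockouts, leaving out clone Kat5/1 gave 11 calls, 10 higher and 1 lower in the Ep400 ko clones, against 9.29% and 8.71% of all genes. The higher were *Plxna2* (2.84), *Ephb6* (3.17), *Plxnd1* (2.22), *Sema3b* (2.69), *Sema3f* (1.17), *Ntn1* (1.15), *Ntn3* (4.17), *Sema6c* (3.48), *Sema6d* (2.62) and *Efna3* (3.94), and the lower *Epha5* (-5.82). *Efna3*, *Sema6c*, *Sema6d* and *Ntn3* passed the filter through the Ep400 ko clones and *Epha5* through the Kat5 ko clones. This favoured a difference in the direction found. In clone Kat5/1 the sum of the 4 smooth muscle genes (*Acta2*, *Myh11*, *Cnn1* and *Tagln*) was 685 CPM, against 0.461 CPM in the lowest of the Kat5 ko clones and 5.84 to 16.6 CPM in wildtype cells, with *Acta2* at 505 and *Tagln* at 180 CPM but *Myh11* and *Cnn1* under 0.1 CPM. The part of such transcripts in the result was not tested.

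Partners of the guidance families were examined as lists written with earlier results known. Of 18 other receptors, co-receptors and ligands, 13 were tested in the Ep400 ko clones. Of these, 3 rose (23.1%, against 8.09% of all genes) and 0 fell (5.76% of all genes). At an unadjusted p of at most 0.05, 9 were higher and 0 lower, against 18% and 14.2% of all genes, and by DESeq2 6 and 0, against 12.1% and 10.5%. The median log2-fold change was 1.03 against 0.04 over all genes. *Neo1*, the netrin and RGM receptor neogenin, was at 101, 79.7, 111 and 107 CPM in wildtype cells, 136, 109 and 106 in the Kat5 ko and 192, 138 and 162 in the Ep400 ko clones and rose in the Ep400 ko clones (log2-fold change 0.72, standard error 0.17, adjusted p = 0.026). *Dcc*, the other netrin receptor of this class, was at 0 in all libraries. *Ntng2*, a membrane-anchored netrin-G ligand, was at 0.0319, 0.0289, 0.0522 and 0.0221 CPM in wildtype cells, 0, 0 and 0 in the Kat5 ko and 2.67, 2.41 and 6.07 in the Ep400 ko clones. It passed the filter on low counts through the Ep400 ko clones alone, so that it had to differ, and its place among the 3 genes that rose and the 4 that were higher between the knockouts rests on that. *Gfra1*, the GDNF co-receptor, was at 40.9, 19.8, 19.7 and 46.8 CPM in wildtype cells, 18.5, 8.57 and 7.58 in the Kat5 ko and 84.7, 278 and 90.6 in the Ep400 ko clones (log2-fold change 2.25, standard error 0.49, adjusted p = 0.0211), while *Ret*, its signaling partner, was below 1 CPM in all libraries. Between the knockouts *Cxcr4*, *Gpc1*, *Gfra1* and *Ntng2* were higher in the Ep400 ko clones and 0 of the 13 tested were lower. These shares are 30.8% and 0%, against 4.34% and 2.97% of all genes. At an unadjusted p 6 were higher and 0 lower, against 16.4% and 16%, and by DESeq2 6 and 0, against 12.2% and 10.3%. *Cxcr4*, at 1.43, 0.132 and 0.353 CPM in the Kat5 ko clones, passed the filter through the Ep400 ko clones, which favoured a difference in that direction. Of 11 tested in the Kat5 ko clones, 0 were called, where 0.127% of all genes were higher and 0.372% lower. At an unadjusted p 0 were higher and 3 lower, against 10.7% and 11.6%, and by DESeq2 likewise 0 and 3, against 4.86% and 6.12%.

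Of 30 cytosolic effectors, 28 were tested in the Ep400 ko clones, where 1 rose (3.57%, against 8.09% of all genes) and 3 fell (10.7%, against 5.76%). At an unadjusted p, 6 were higher and 4 lower, against 18% and 14.2% of all genes, and by DESeq2 4 and 3, against 12.1% and 10.5%. The log2-fold change had a median of 0.09. *Srgap3*, an effector of Slit and Robo signaling, was at 32.4, 33.7, 42.7 and 31.4 CPM in wildtype cells, 48.4, 31.2 and 49.3 in the Kat5 ko and 86.5, 73.3 and 117 in the Ep400 ko clones and rose (log2-fold change 1.40, standard error 0.19, adjusted p = 0.00455). *Dpysl3*, a collapsin response mediator, was at 627, 630.0, 470.0 and 670.0 CPM in wildtype cells, 1220, 605 and 667 in the Kat5 ko and 349, 289 and 281 in the Ep400 ko clones and fell (log2-fold change -0.97, standard error 0.17, adjusted p = 0.0112). *Gipc1*, an adaptor that binds neuropilin 1, fell as well (log2-fold change -0.81, standard error 0.17, adjusted p = 0.0187), as did *Tiam1*, a Rac exchange factor (log2-fold change -3.52, standard error 0.69, adjusted p = 0.0151), which had 3.13, 3.09, 8.09 and 3.53 CPM in wildtype cells and 0.0938, 0.656 and 0.423 CPM in the Ep400 ko clones. *Tiam1* passed the filter on low counts through the wildtype libraries, and between the knockouts through the Kat5 ko clones, which favoured a fall in advance. Its place among the 3 genes that fell carries this limit. Between the knockouts *Rnd2* was higher and *Dpysl3* and *Tiam1* lower in the Ep400 ko clones, of 26 tested. These shares are 3.85% and 7.69%, against 4.34% and 2.97% of all genes. At an unadjusted p 4 were higher and 4 lower, against 16.4% and 16%, and by DESeq2 4 and 3, against 12.2% and 10.3%. Of 27 tested in the Kat5 ko clones, 0 were called, where 0.127% of all genes were higher and 0.372% lower. At an unadjusted p 4 were higher and 2 lower, against 10.7% and 11.6%, and by DESeq2 1 and 2, against 4.86% and 6.12%.

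Some markers of cell types differed in the Ep400 ko clones too. Of the 14 genes of the cranial neural crest and its mesenchyme, 3 rose (*Snai2* 0.85, *Tfap2a* 1.37 and *Pdgfra* 2.25) and 0 fell, 21.4% and 0%. At an unadjusted p 5 were higher and 1 lower, and by DESeq2 4 and 1. Of all genes, 8.09% were higher and 5.76% lower, 18% and 14.2% at an unadjusted p and 12.1% and 10.5% by DESeq2. *Snai1* lay below all wildtype libraries in all Ep400 ko clones, with 16.9, 14.8 and 14.2 CPM against 17.2 to 24.1 CPM. The 14 genes summed to 9228 to 12890 CPM against 7866 to 9531 CPM in wildtype cells, which overlap. Most of this sum was *Vim*, at 6760, 10300 and 8370 CPM against 6210 to 7880 CPM in wildtype cells. Of the early neural crest genes, *Pax3* was at 6.80, 1.31 and 6.30 CPM in the Ep400 ko clones and at most 0.183 CPM in wildtype cells. The 8 neuronal genes summed to 1.82 to 4.56 CPM in the Ep400 ko clones and 1.17 to 2.2 CPM in wildtype cells, with a higher *Stmn2* (2.61) and *Rbfox3* at 0 in all libraries. The 5 genes of Schwann cells and glia summed to 7.46 to 13.1 and 5.32 to 8.03 CPM, with a higher *Erbb3* (1.35) and a lower *Mbp* (-3.26). The 6 endothelial genes summed to 0.218 to 0.473 and 0.983 to 1.68 CPM, with a lower *Pecam1* (-3.33), and the 4 epithelial genes to 0.516 to 0.921 and 1.62 to 4.70 CPM, with lower *Krt8* (-2.21) and *Krt18* (-5.78). *Mbp*, *Pecam1*, *Krt8* and *Krt18* passed the filter on low counts through the wildtype libraries, and *Pax3* and *Stmn2* through the Ep400 ko clones. This favoured a difference in the direction found. The 4 leukocyte genes summed to 2.54 to 7.82 and 5.01 to 6.42 CPM, with 0 of 1 tested called (0 at an unadjusted p and by DESeq2), and the 4 smooth muscle genes to 2.34 to 58.9 CPM in the Ep400 ko clones. In the Kat5 ko clones 0 markers of these lists were called, where 0.127% of all genes were higher and 0.372% lower. At an unadjusted p 3 markers were higher and 8 lower, against 10.7% and 11.6% of all genes. These were 1 and 1 of 13 cranial neural crest genes tested, 0 and 2 of 3 for glia, and 0 and 3 of 3 for epithelium. They were 0 and 1 of 1 for endothelium and for leukocytes, 2 and 0 of 2 for smooth muscle, and 0 and 0 of 2 for neurons. The epithelial genes tested and *Pecam1* passed the filter through the wildtype libraries, which favoured a fall. By DESeq2 the markers called were 0 and 3, against 4.86% and 6.12%. The sums of the lists in these clones lay below those of wildtype cells for the cranial neural crest (7330 to 7590 CPM), Schwann cells and glia (2.90 to 3.91 CPM), the endothelium (0.198 to 0.717 CPM) and the epithelium (0.308 to 0.827 CPM). They overlapped them for neurons (0.33 to 8.71 CPM), leukocytes (3.03 to 6.83 CPM), smooth muscle and the early neural crest. Most of the cranial neural crest sum was *Vim*, at 5740, 5800 and 5400 CPM in the Kat5 ko clones. *Cd44* of the same list lay above all wildtype libraries in all Kat5 ko clones, with 675, 557 and 670 CPM against 327 to 532 CPM. The part of such cells in the changes of the guidance genes was not tested.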

How the data were processed

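RNA of 4 wildtype samples, 3 Kat5 ko clones and 3 Ep400 ko clones was sequenced as poly-A libraries (TruSeq Stranded mRNA, paired reads, NovaSeq). The submitters' processing notes name STAR 2.7.3, DESeq2 1.36.0 and R 4.2.1, and the reads were mapped to mm10. The counting program, its strand setting and the annotation are not given in the sources used here. The deposited raw counts are whole reads per gene made by the authors. The deposited normalized tables were not used.

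After filterByExpr and TMM normalization, the quasi-likelihood test of edgeR 4.0.16 in R 4.3.3 was run over all genes, with only the libraries compared and Benjamini-Hochberg adjustment. A call is an adjusted p of at most 0.05. On simulated counts with 200 changed genes the test was checked for both knockouts. Fits with DESeq2 1.42.0 and limma 3.58.1, other filters and normalizations, a replicate block, a chromosome offset and each library left out were alternatives, and a robust estimate of the spread was added after the data were seen. CPM in the text used TMM factors over all 10 libraries. Exon lengths are merged GENCODE M21 exons, including exons that these cells may not use, and exist for 67 of 68 members. Members, lists and tests were chosen with earlier results of these data known. Named are all called members, the highest per length of each family in wildtype cells, members with at most 3 counts in each library of one group and a mean over 20 in another (which no gene met), and 19 members fixed by name. Libraries of a group differed beyond counting noise (chi-square over degrees of freedom, 28.1 to 258). Same-numbered libraries were not paired (correlations of residuals -0.0957 to 0.223).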

Additional observations from a re-analysis of the deposited data

Results flagged for a closer look

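In 4 of the 52 members tested for it, 1 wildtype library lay far from the other wildtype libraries, where chance flags about 1 in 20 groups. *Epha5* had 11.5 CPM in wildtype library 3, where the other wildtype libraries had at most 0.464 CPM. *Nrp1* was lowest in wildtype library 3, with 42.7 CPM, against 99.0 to 116 CPM. *Sema3d* was also lowest there, with 0.13 CPM, and *Sema4b* was highest in wildtype library 2, with 68.7 CPM. In each of the 4, Dixon's ratio on the log2 scale was above its 95% critical value, and groups of 3 clones were not examined in this way.

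The effects of the knockouts differed for *Plxna2* (log2 difference between the Ep400 and Kat5 ko clones 2.82) and *Ephb6* (2.46), by the direct comparison with edgeR's quasi-likelihood test. In both genes 3 of 3 Ep400 ko clones lay above 3 of 3 Kat5 ko clones, as in 31.4% of the members tested and 20.5% of all genes. The 2 calls are 3.92% of the members tested, against 4.34% of all genes called higher. The *Ephb6* call was lost with any clone but Kat5/1 left out. That of *Plxna2* was lost without clone Kat5/3 or clone Ep400/3.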

How the results depend on the processing

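The number of guidance genes called in the Kat5 ko clones (1) was 15 with unadjusted p, 10 with DESeq2, 2 with limma-voom, 4 without a filter on low counts, 2 with the chromosome offset, and 0 to 13 with 1 library left out. In the Ep400 ko clones (9) it was 20 with unadjusted p, 4 to 9 with 1 library left out (4 without wildtype library 4) and 7 to 13 in the other alternatives without a block. Between the knockouts (2) it was 21 with unadjusted p, 17 with DESeq2, 4 with limma-voom, 4 with library size alone, 10 without a filter, 13 in 1 fit over all libraries, 4 with the chromosome offset, and 0 to 11 with 1 library left out. With the replicate block, the calls numbered 0 for Kat5, 3 for Ep400 (*Plxna2*, *Epha7* and *Ephb6*) and 2 between the knockouts (*Plxna2* and *Slit3*), although the libraries share only a number: the deviations of 1 of 6 samples for Kat5, 1 of 6 for Ep400 and 3 of 6 between the knockouts correlated best with those of their own number, which is a hint from the data and not the design. The robust spread, chosen after seeing the data, left these counts at 1, 9 and 2. *Plxna2*, *Epha7* and *Ephb6* stayed called against wildtype in the Ep400 ko clones under all alternatives. The cause was not tested for any of these changes, except that fewer libraries enter where 1 is left out. Signs turned only in changes that were not called. With limma-voom these were *Plxnb1* (-0.40) and *Sema3f* (-0.028) for Kat5 and *Ephb4* (-0.0298) between the knockouts. With the replicate block they were *Plxnb1* (-0.86) and *Sema3f* (-0.11) for Kat5, *Nrp2* (-0.00556) for Ep400 and *Ephb4* (-0.0321) between the knockouts. *Nrp2* turned for Ep400 without a filter (-0.0178) and with the chromosome offset (-0.00972), *Efnb2* with the chromosome offset (0.067), and *Plxna1* between the knockouts with library size alone (0.0416). With 1 library left out, the range for Kat5 was -0.33 to 0.13 for *Efnb1*, -0.74 to 1.39 for *Epha4*, -0.43 to 0.22 for *Nrp2*, -0.95 to 0.20 for *Ntn1*, -1.62 to 1.18 for *Plxnb1* and -0.49 to 0.40 for *Sema3f*. For Ep400 it was -0.42 to 0.22 for *Efnb2*, -0.00636 to 0.54 for *Ephb3*, -0.41 to 0.13 for *Ephb4*, -0.0537 to 0.0937 for *Nrp2*, -0.00504 to 1.01 for *Slit3* and -0.55 to 0.0825 for *Unc5b*. Between the knockouts it was -0.48 to 1.96 for *Epha4*, -0.30 to 0.23 for *Ephb4*, -0.25 to 0.40 for *Nrp2*, -0.00269 to 1.15 for *Ntn1* and -0.17 to 0.0129 for *Plxna1*. Members near the floor of 3 counts per library, such as the Robo receptors, allow no statement on change at this depth.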
